A study of Mus musculus with 10 samples.

Results

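The integrins and cadherins, the genes of the main receptors by which cells hold on to matrix and to each other, were followed through the chemical reprogramming of mouse embryonic fibroblasts (MEFs) into cells that resemble extraembryonic endoderm (XEN-like cells). Every gene with the symbol of an integrin alpha subunit, an integrin beta subunit or a numbered cadherin was taken, except *Cdh1* and *Cdh15*. The rule uses symbols alone, but it was set with earlier results of these data known. The set held 42 of the 23197 genes in the table, with 13 alpha subunits, 8 beta subunits and 21 cadherins. Single cells were picked by hand before treatment (d0) and on days 1, 2, 3, 4, 5, 6, 8, 12 and 20 of the cocktail C6FAE (d1 to d20), and the cells of day 6 carry the name d6p, whose p is not explained. C6FAE combines CHIR99021 (C, a GSK3 inhibitor), the ALK5 inhibitor RepSox (6), Forskolin (F, which raises cAMP), AM580 (A, a retinoic acid receptor agonist) and EPZ004777 (E, a Dot1L inhibitor), given in medium with serum and bFGF. All treated groups share these agents and there is no untreated group after d0. Further cells were taken from colonies, those of d8c on day 8 and those of d12c on day 12. The labels give C6FAE, whereas the study's methods also list valproic acid in the reprogramming medium. The MEFs were primary cells of ICR embryos without head, limbs and viscera, so d0 is a mixed population and not a single cell type or clone.

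Integrins are pairs of an alpha and a beta chain. The alpha chain largely sets the ligand (collagens, laminins, or proteins with the RGD peptide such as fibronectin and vitronectin), and the beta chain binds talin and kindlin inside the cell, which join it to actin at focal adhesions. Cadherins bind cadherins of the neighbouring cell in a calcium-dependent manner, and their tails bind catenins. Fibroblasts are known for fibronectin and collagen receptors and for N-cadherin and cadherin-11, and extraembryonic endoderm for an epithelial cell layer on a basement membrane of laminin and type IV collagen.

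The series lists 10 batches, but the name of a cell holds its time point and a running number alone, so each time point was treated as 1 sample and no test between time points was made. Of 808 cells, 670 had at least 4000 detected genes and were kept, between 20 (d8c) and 86 (d6p) per group, with group medians of 195480 UMIs (d20) to 1055206 UMIs (d2) per cell. The loss was uneven, with 38 of 72 cells kept at d20 and 51 of 96 at d12c, against 40 of 40 at d1 and 67 of 72 at d12. At d12c, 21 of 24 cells numbered 1 to 24 and 30 of 48 numbered 49 to 96 were kept, and none with a number in between. UMIs are tags that mark single RNA molecules. They were scaled to CPM, counts relative to the total of the cell without spike-ins, and levels are given as CPM or as the mean over cells of log2(CPM + 1) with the SD over cells, which are not replicates. Shares of cells with a UMI are given after thinning each cell to 50000 UMIs, with exact Clopper-Pearson intervals at 95% that cover counting error only. Counts over all kept cells of a group, such as the 38 of d20, are before thinning. Spike-in RNAs, which were left out of the CPM, made up 3.04% of all counts at d0, 11.4% at d12 and 18.0% at d20. As a view of the spread inside a time point, means were also taken over cells in ranges of 24 running numbers; what a range stands for is not stated. The ranges of a time point differed by a median of 0.96 over the 19 better expressed members at d0 and of 1.05 at d20 on the log2 scale. At d4 the median was 0.96 too, but the ranges of 4 members differed by at least 2, against 1 member at d0 and 2 at d20. The median was 2.00 at d12c, where the cells numbered 1 to 24 and 49 to 96 stood apart. The latter carried the summed XEN markers of d20 cells (median 1038 CPM, against 1349 CPM at d20 and 195 CPM in cells 1 to 24), and the 2 kinds of d12c cells are therefore shown apart. Fibroblast markers summed to a median of 2747 CPM at d0 and 7291 CPM at d12. At d20 the sum was 241 CPM, with only *Thy1* and *Pdgfra* of the 8 markers at a mean over 10 CPM. The 6 endothelial and 8 blood markers summed to medians of at most 7.58 and 4.80 CPM per group, with single cells up to 659.96 and 412 CPM and with *Pecam1* and *Ptprc* at means of at most 1.15 and 0.0824 CPM. Single genes of these lists passed a mean of 10 CPM, among them *Esam* at d2 and d3 (51.6 and 61.6 CPM), *Kdr* at d12 (36.2 CPM) and *Cd68* at d12 (17.9 CPM). Between d0 and d12, *Kdr*, *Csf1r* and the neural marker *Nes* were higher by at least 1 on the log2 scale. Of 6 muscle markers, *Myog* reached a mean of 67.2 CPM at d0 and *Chrna1* 255 CPM at d2. The part of these cells in the members' levels was not tested.

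Of the 42 members, 19 reached a mean of 10 CPM at 1 or more time points, 14 of them integrins and 5 cadherins. The other 23 stayed at or below 6.44 CPM. *Cdh11* and *Itgb1* together held 66.7% of the 659788 UMIs of all members in the kept cells. The 19 members did not move as a block. On the log2 scale, 2 had their highest mean at d0, 4 had their highest mean at d1, 2 at d2, 6 at d5 or d6p, 1 each at d8 and d8c, 2 at d12 and 1 (*Cdh13*) at d20, while 10 had their lowest mean at d20. These counts take d12c as 1 group.

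**Figure D1:**
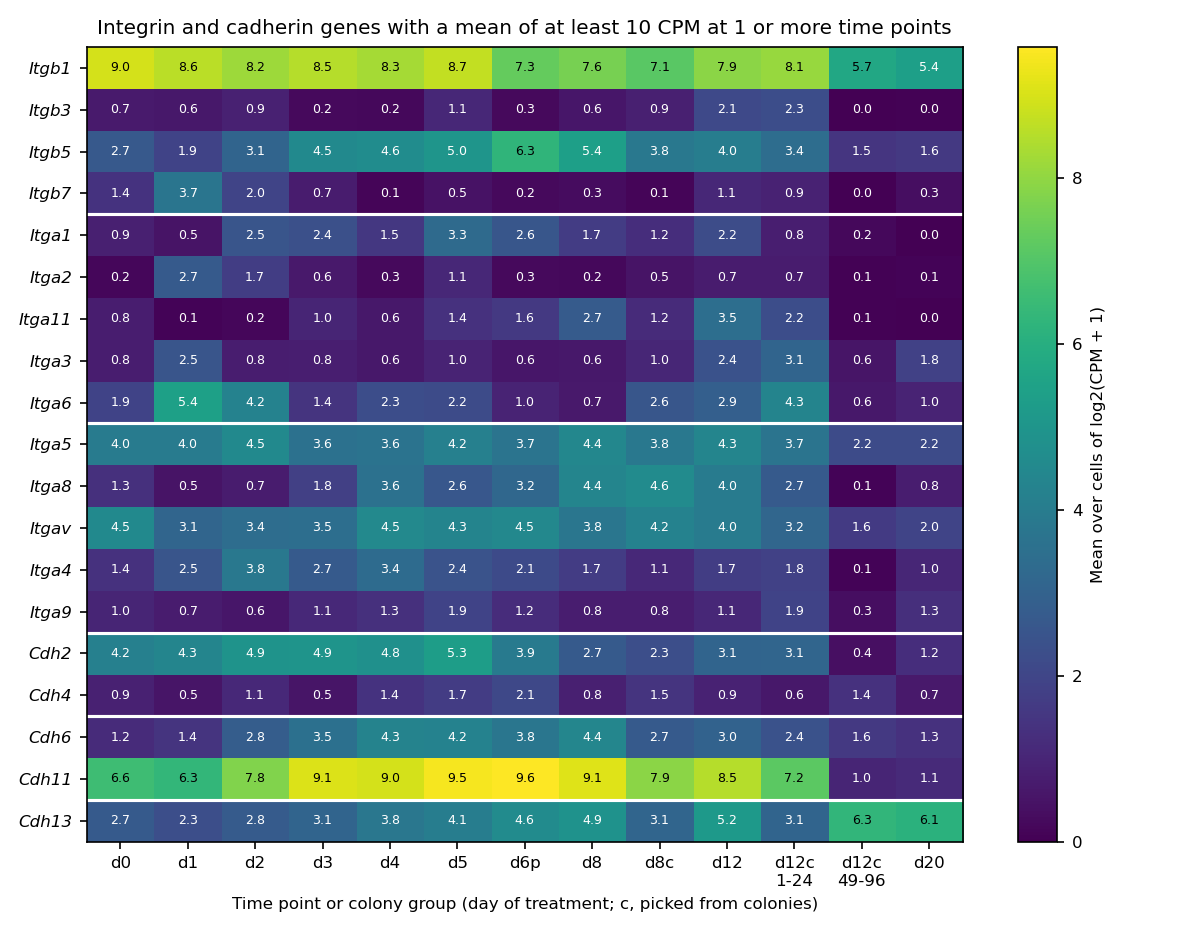
Mean over cells of log2(CPM + 1), by colour and printed value, for the 19 members with a mean of at least 10 CPM (rows, ordered by role and parted by white lines) in each time point or colony group (columns; d12c is split by cell number). *Itga6*, *Itga2*, *Itga3* and *Itgb7* stand out at d1, *Cdh11* and *Itgb5* peak at d6p, and *Cdh13* has its highest means (6.29 and 6.12) in the d12c cells numbered 49 to 96 and at d20.

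Start regions were read for members of the groups that moved together, as far as the RefSeq promoter table (GRCm38.p6) holds them. It has an entry for 28 of the 42 members. Shown are the 250 bases before the start of *Itga2* and *Itgb7*, which peaked at d1, and of *Itgb5*, *Cdh6* and *Itga8*, which peaked at d6p or day 8. Each is written on the strand of its gene, with GC boxes (GGGCGG on either strand) in capitals. The bases just after the start were found in GENCODE M1 transcripts of the gene for *Itgb7*, *Itgb5* and *Itga8*, but not for *Itga2* and *Cdh6*.
Itga2, chr13:114932101-114932350, minus strand: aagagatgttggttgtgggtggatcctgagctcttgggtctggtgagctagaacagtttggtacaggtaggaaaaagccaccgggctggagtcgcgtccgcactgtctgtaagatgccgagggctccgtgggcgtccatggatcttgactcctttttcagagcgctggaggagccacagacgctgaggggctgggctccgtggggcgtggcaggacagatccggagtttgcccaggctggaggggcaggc
Itgb7, chr15:102231936-102232185, minus strand: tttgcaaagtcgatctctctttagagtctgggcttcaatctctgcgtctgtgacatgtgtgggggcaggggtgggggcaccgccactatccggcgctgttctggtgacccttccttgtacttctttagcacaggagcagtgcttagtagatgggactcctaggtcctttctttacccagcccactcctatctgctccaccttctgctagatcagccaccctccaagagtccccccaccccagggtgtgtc
Itgb5, chr16:33829415-33829664, plus strand: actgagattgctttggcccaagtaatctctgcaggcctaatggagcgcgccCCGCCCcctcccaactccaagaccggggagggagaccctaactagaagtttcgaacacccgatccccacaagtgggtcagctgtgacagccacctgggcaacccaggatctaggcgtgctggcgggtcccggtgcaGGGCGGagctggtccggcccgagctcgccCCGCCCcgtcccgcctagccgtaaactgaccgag
Cdh6, chr15:13173676-13173925, minus strand: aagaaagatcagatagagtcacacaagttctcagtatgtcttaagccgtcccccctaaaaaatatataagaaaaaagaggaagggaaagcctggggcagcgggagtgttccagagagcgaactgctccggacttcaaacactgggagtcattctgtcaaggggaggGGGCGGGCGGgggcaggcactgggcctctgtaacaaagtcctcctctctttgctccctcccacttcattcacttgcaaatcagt
Itga8, chr2:12301945-12302194, minus strand: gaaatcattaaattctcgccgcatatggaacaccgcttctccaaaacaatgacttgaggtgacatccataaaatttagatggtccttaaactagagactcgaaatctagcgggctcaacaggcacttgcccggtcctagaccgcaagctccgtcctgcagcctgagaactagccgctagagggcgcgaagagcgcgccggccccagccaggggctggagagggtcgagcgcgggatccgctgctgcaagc
The *Itgb5* region holds 3 GC boxes and the *Cdh6* region 2 that overlap, whereas these letters are not in the windows of *Itga2*, *Itgb7* and *Itga8*. A GC box stands in 10 of the 32 promoter entries of members and in 32.7% of all 32851 entries. The cAMP response element (TGACGTCA, in 1.55% of all entries), the AP-1 site (TGANTCA, 6.75%) and the TATA box (TATAAA, 12.4%) were found in no member entry on either strand. A GATA site (AGATAA, 9.99% of all entries) was found for *Cdh7*, and a LEF/TCF site (CTTTGA, 13.8%) for *Cdh7*, *Itga1* and *Itga10*. A match is a run of letters, and nothing is read from its presence or absence.

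Among the beta subunits, the common beta1 chain was lower from d6p on and lowest at d20, beta5 was highest at d6p, and beta7 was high for 1 day. *Itgb1* (NCBIM37, chr8:131209554-131257100) encodes the chain that pairs with most alpha subunits of this set. Its level per cell at d0 ran from 74.9 to 2089.6 CPM with a median of 499.9 CPM, at d12 from 29.6 to 2059 CPM with a median of 255 CPM, and at d20 from 0 to 340.1 CPM with a median of 62.2 CPM. The d20 cells were low as a group, but single cells overlapped with d0 and d12. Its mean log2(CPM + 1) was 8.96 ± 0.90 (SD, n = 72 cells) at d0, 7.30 at d6p, 7.90 ± 1.06 (n = 67) at d12 and 5.41 ± 2.34 (n = 38) at d20, a difference of -1.66 between d6p and d0 and of -3.54 between d20 and d0. All number ranges of d20 (4.99 to 5.88) lay below those of d0 (8.35 to 9.31). After thinning, *Itgb1* was found in 71 of 71 cells at d0 and in 27 of 36 at d20 (interval 57.8 to 87.9%).

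*Itgb5*, whose product joins alphav to form a vitronectin receptor, lay between 0 and 169 CPM per cell at d0 with a median of 3.54 CPM. At d6p its cells ran from 0 to 1040.9 CPM with a median of 89.2 CPM, and at d20 from 0 to 64.9 CPM with a median of 0. The d6p cells were mostly above the d0 cells, with overlap at the low end. On the log2 scale the mean of log2(CPM + 1) went from 2.66 ± 2.24 (n = 72) at d0 over 4.53 at d3 to 6.26 ± 1.83 (n = 86) at d6p, and then to 4.04 at d12 and 1.57 ± 2.37 (n = 38) at d20. The rise between d0 and d6p was 3.60, and the number ranges did not overlap (5.78 to 6.85 at d6p, 1.89 to 3.71 at d0). Within the summed mean CPM of all 8 beta genes, *Itgb5* took 3.15% at d0 and 37.2% at d6p, and *Itgb1* 94.9% and 61.2%.

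*Itgb7*, a chain best known from lymphocytes, where it pairs with alpha4, was detected at d1 in cells of up to 323 CPM with a median of 9.99 CPM, against up to 135 CPM and a median of 1.14 CPM at d0. The mean log2(CPM + 1) was 1.40 ± 1.70 (n = 72) at d0, 3.72 ± 2.17 (n = 40) at d1, 1.95 at d2 and 0.14 at d4. The d1 ranges (3.35 to 4.29) lay above those of d0 (0.95 to 2.02). Thinned cells with a UMI went from 11 of 71 at d0 to 22 of 40 at d1 and 2 of 73 at d4. *Itgb3*, the other vitronectin receptor chain, was highest at d12, with a mean log2(CPM + 1) of 2.12 ± 1.89 (n = 67) against 0.69 ± 1.51 (n = 72) at d0 and a highest cell of 127 CPM. After thinning the d12 rise was 0.72 and no longer reached 1. At d20, 1 of 38 cells held an *Itgb3* UMI.

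The collagen- and laminin-binding alpha subunits held 3 of the 5 members that were higher on the first day. *Itga6* (chr2:71583673-71696473), an alpha chain of laminin receptors, lay per cell between 0 and 173 CPM at d0 with a median of 1.74 CPM, and between 0 and 328 CPM at d1 with a median of 55.3 CPM. At d3 the median was back at 0.30 CPM with a highest cell of 97.9 CPM. Most d1 cells were higher than most d0 and d3 cells, although the groups overlapped. The mean log2(CPM + 1) was 1.91 ± 2.05 (n = 72) at d0, 5.44 ± 1.97 (n = 40) at d1, 4.24 ± 2.13 (n = 83) at d2 and 1.42 ± 2.10 (n = 38) at d3, so that a rise of 3.52 was followed by falls of 1.20 and 2.82 in the differences from day to day. The d1 ranges (5.31 to 5.63) were apart from those of d0 (1.03 to 2.49). The thinned share of cells with a UMI was 16.9% (12 of 71) at d0, 82.5% (33 of 40) at d1 and 18.9% (7 of 37) at d3. A lower second rise was seen at d12 (2.92 ± 2.42, n = 67), and d8 was the lowest of the time points (0.66).

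*Itga2*, the alpha chain of a collagen and laminin receptor, was nearly absent at d0, where the highest of 72 cells had 30.6 CPM and the median was 0. At d1 the highest cell had 566 CPM and the median was 0.80 CPM. The groups overlapped at 0, and the d1 level came from 21 of 40 cells. As mean log2(CPM + 1), *Itga2* was at 0.17 ± 0.71 at d0, 2.73 ± 3.10 at d1, 1.72 ± 2.48 at d2 and 0.26 ± 1.06 at d4, and thinned cells with a UMI were 1 of 71, 17 of 40, 23 of 82 and 2 of 73. *Itga3*, a laminin receptor chain, had a mean log2(CPM + 1) of 0.77 ± 1.55 at d0, 2.51 ± 2.36 at d1 and 0.77 ± 1.53 at d2. It was high again at d12 (2.40 ± 2.37, n = 67) and kept 1.83 ± 2.66 at d20, where 14 of 38 cells held a UMI and the highest had 168 CPM. The highest mean of *Itga3* was that of the d12c cells numbered 1 to 24 (3.08). There 10 of 21 thinned cells held a UMI, against 15 of 40 at d1.

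**Figure D2:**
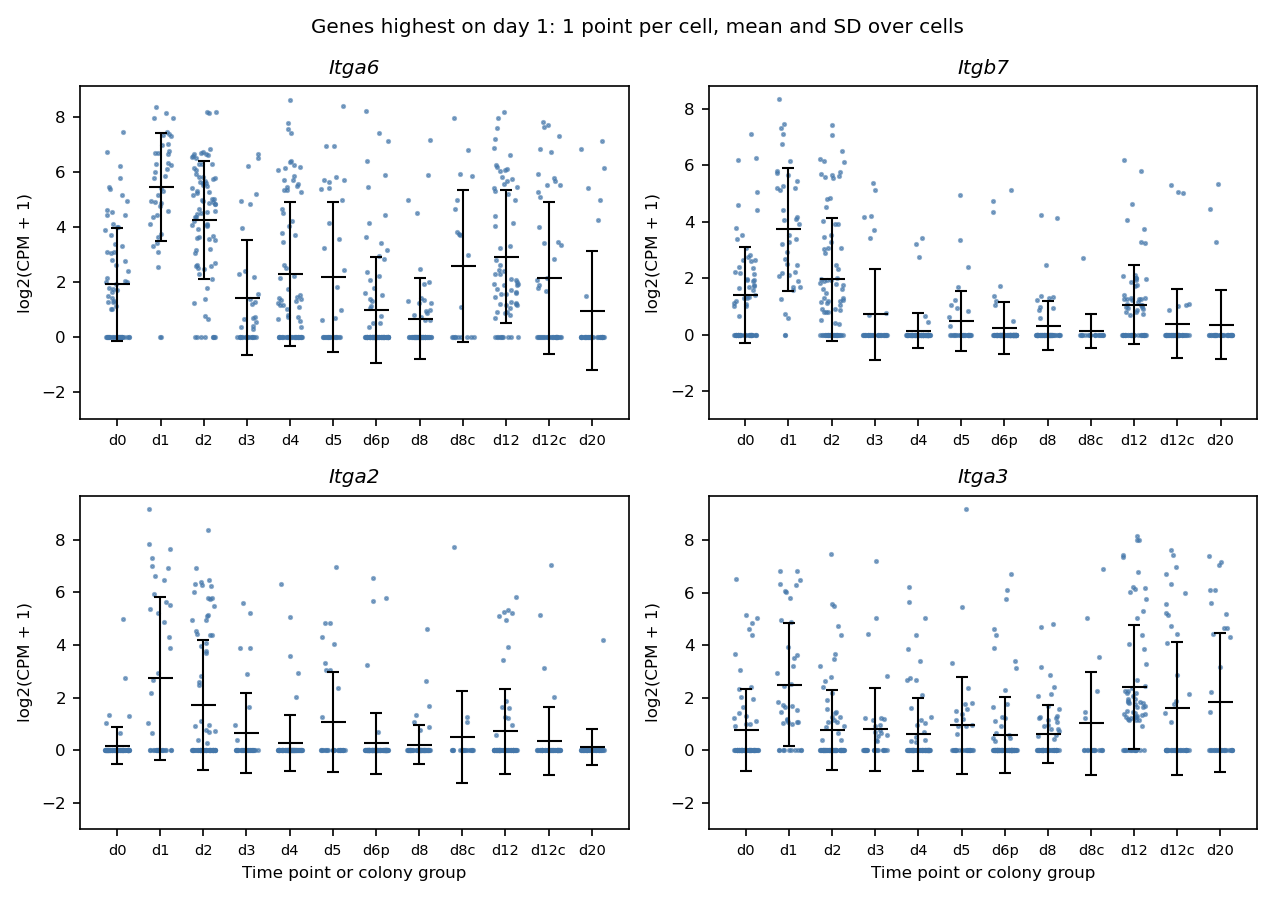
log2(CPM + 1) of *Itga6*, *Itgb7*, *Itga2* and *Itga3* in every kept cell (points) by time point or colony group, with the mean and SD over cells (black bars). *Itga6* lifts from a mean of 1.91 at d0 to 5.44 at d1 with few cells left at 0, while *Itga2* and *Itga3* keep many cells at 0 at d1.

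The collagen receptor chains *Itga1* and *Itga11* came later. *Itga1* went from a mean log2(CPM + 1) of 0.85 ± 1.58 (n = 72) at d0 and 0.52 at d1 to 2.53 ± 2.45 (n = 83) at d2 and 3.31 ± 2.78 (n = 36) at d5. *Itga11*, a receptor chain for fibrillar collagen known from mesenchymal cells, had a median of 0 and a highest cell of 60.8 CPM at d0, and a median of 5.89 and a highest cell of 454 CPM at d12. Its d12 cells were mostly above 0 and its d0 cells mostly at 0. *Itga11* had a mean log2(CPM + 1) of 0.76 ± 1.65 (n = 72) at d0, 0.08 at d1, 2.73 at d8 and 3.47 ± 2.33 (n = 67) at d12, with d12 ranges (2.75 to 4.04) above those of d0 (0.42 to 1.19). At d20 neither gene had a UMI in any of 38 cells, which allows a share of cells with a UMI of up to 7.89% for each.

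Among the RGD-binding subunits, *Itga5*, the fibronectin receptor chain, lay at a mean log2(CPM + 1) between 3.59 (d3) and 4.54 (d2) at all time points up to d12 and at 2.21 ± 2.29 (n = 38) at d20, 1.77 lower than at d0 (3.98 ± 2.34, n = 72). Its median cell was at 20.9 CPM at d0, 23.5 CPM at d12 and 2.95 CPM at d20. *Itgav*, shared by the vitronectin receptors, was the 1 member lower by at least 1 at d1 than at d0 (3.13 ± 1.94 against 4.54 ± 2.34, with median cells at 13.2 and 39.5 CPM), was back at 4.51 at d4, and stood at 1.95 ± 2.51 at d20. The number ranges of *Itgav* at d1 (2.95 to 3.39) lay below those at d0 (3.78 to 5.31).

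*Itga8* (chr2:12028259-12223547) encodes the alpha chain of a nephronectin receptor. At d0 its cells ran from 0 to 78.1 CPM with a median of 0, and at d8 from 0 to 900.7 CPM with a median of 18.2 CPM. The d8 cells were largely above those of d0, and the d8 ranges (3.95 to 4.58) were apart from the d0 ranges (0.59 to 1.73). The mean log2(CPM + 1) was 1.34 ± 2.06 (n = 72) at d0, 0.52 at d1, 3.58 at d4, 4.37 ± 2.43 (n = 62) at d8, 3.98 ± 2.31 (n = 67) at d12 and 0.76 ± 1.47 (n = 38) at d20. All 20 kept d8c cells held an *Itga8* UMI before thinning. After thinning, 13 of 20 cells at d8c and 35 of 59 at d8 held one. *Itga4*, a receptor chain for fibronectin and VCAM1, was highest on the log2 scale at d2 (3.84 ± 2.63, n = 83), with a median cell of 26.0 CPM against 0 at d0 and a mean log2(CPM + 1) of 1.36 ± 1.83 there. By mean CPM *Itga4* was highest at d4 (46.0 CPM), and its ranges at d2 (2.57 to 4.65) and d4 (2.13 to 4.33) overlapped. *Itga9*, its closest relative, stayed between 0.57 (d2) and 1.92 (d5). At d6p 68.9% of its summed CPM came from 1 cell at 1264 CPM.

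Of the 2 better expressed type I cadherins, *Cdh2* was lower from d8 on and *Cdh4* was highest at d6p. *Cdh2* encodes N-cadherin, the classical cadherin of fibroblasts and neurons. Its cells ran from 0 to 445 CPM at d0 with a median of 26.8 CPM, from 0 to 609 CPM at d12 with a median of 3.70 CPM, and from 0 to 219.9 CPM at d20 with a median of 0. The groups overlapped, with fewer high cells at d12 and d20. N-cadherin RNA had a mean log2(CPM + 1) of 4.17 ± 2.71 (n = 72) at d0, 5.31 ± 1.99 (n = 36) at d5, 2.70 ± 2.47 (n = 62) at d8, 3.08 ± 2.50 (n = 67) at d12 and 1.24 ± 2.36 (n = 38) at d20. Thinned cells with a UMI were 44 of 71 at d0, 29 of 35 at d5, 23 of 66 at d12 and 7 of 36 at d20. *Cdh4*, R-cadherin, had a UMI in fewer cells than *Cdh2* at each time point, though not in the d12c cells numbered 49 to 96 (8 against 4 cells), and was highest at d6p (2.06 ± 2.80, n = 86). There 1 cell at 890.8 CPM gave 28.4% of its summed CPM.

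The 2 better expressed type II cadherins rose to the middle of the course. *Cdh11* (chr8:105156895-105309011), the cadherin of mesenchymal cells, ran at d0 from 0 to 1099 CPM with a median of 110.2 CPM, at d6p from 45.8 to 3508 CPM with a median of 801 CPM, at d12 from 5.38 to 1173 CPM with a median of 423 CPM, and at d20 from 0 to 79.3 CPM with a median of 0. Every d20 cell was below the medians of the other 3 days, and d0, d6p and d12 overlapped. The mean log2(CPM + 1) was 6.59 ± 1.96 (n = 72) at d0, 9.57 ± 1.10 (n = 86) at d6p, 8.52 ± 1.59 (n = 67) at d12 and 1.13 ± 2.25 (n = 38) at d20. Most of the rise had taken place by d3 (9.07 ± 0.80, n = 38), and the ranges of d3 (8.99 to 9.19) lay above those of d0 (5.79 to 7.02). The fall between d12 and d20 was 7.39. Thinned cells with a *Cdh11* UMI were 63 of 71 at d0, 80 of 81 at d6p, 62 of 66 at d12 and 7 of 36 at d20.

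*Cdh6*, K-cadherin, known from kidney, went from a mean log2(CPM + 1) of 1.17 ± 2.09 (n = 72) at d0 to 4.30 at d4 and 4.38 ± 2.98 (n = 62) at d8, and then to 3.0 ± 2.61 (n = 67) at d12 and 1.35 ± 2.35 (n = 38) at d20. Its median cell was at 0 at d0 and at 24.7 CPM at d8, with highest cells of 234 and 517 CPM. The d4 ranges were spread widely, from 2.91 to 5.72. The d8 ranges (3.96 to 4.88) lay above those of d0 (0.71 to 1.54), and those of d20 (0.90 to 2.19) overlapped with those of d0.

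**Figure D3:**
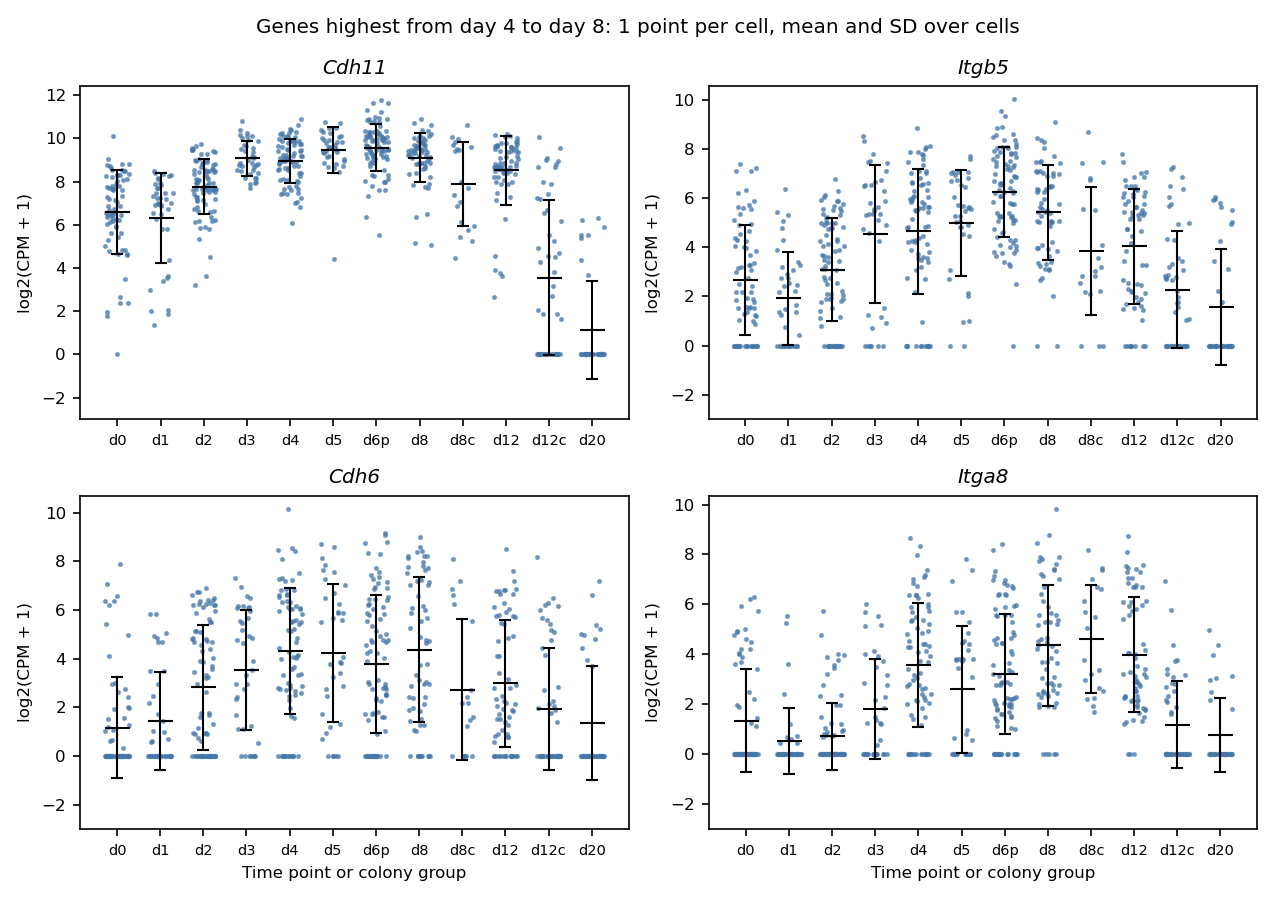
log2(CPM + 1) of *Cdh11*, *Itgb5*, *Cdh6* and *Itga8* in every kept cell (points) by time point or colony group, with the mean and SD over cells (black bars). *Cdh11* climbs from a mean of 6.59 at d0 to 9.57 at d6p with hardly a cell at 0 and drops to 1.13 at d20, where most cells lie at 0.

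*Cdh13* (chr8:120807633-121848821) encodes T-cadherin, which has no cytoplasmic tail and is held by a lipid anchor. It was the 1 member of the 19 that was highest at d20, with d12c taken as 1 group. Its cells ran from 0 to 273 CPM at d0 with a median of 3.14 CPM, from 0 to 1044 CPM at d12 with a median of 45.1 CPM, and from 0 to 1233 CPM at d20 with a median of 89.7 CPM. The groups overlapped, with the middle of the cells moving up. Its mean log2(CPM + 1) was 2.71 ± 2.77 (n = 72) at d0, 4.87 ± 2.57 (n = 62) at d8, 5.17 ± 2.71 (n = 67) at d12 and 6.12 ± 2.32 (n = 38) at d20, and the d20 ranges (4.45 to 7.08) lay above those of d0 (2.57 to 3.24) but overlapped with d12 (4.65 to 5.79). Thinned cells with a UMI were 39.4% (28 of 71) at d0, 63.6% (42 of 66) at d12, and 27 of 36 cells held one at d20. Of the summed mean CPM of the 21 cadherins of the set, *Cdh13* made up 10.9% at d0, 18.3% at d12 and 78.0% at d20, while *Cdh11* made up 59.9%, 70.1% and 4.89%. *Cdh1* and *Cdh15* are outside the set, so these are not shares of all cadherin RNA.

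Of the 23 members below 10 CPM, 20 stayed at 5 CPM or less at every time point and 14 below 2 CPM, and *Cdh12* had no UMI in any kept cell. The most UMIs for 1 of them were 1058. A few are named here after their values were seen. *Cdh3*, P-cadherin, had a mean of 5.22 CPM and a UMI in 25 of 72 cells at d0, and of at most 2.77 CPM in any later group. *Itga7*, a laminin receptor chain of muscle, had means of at most 1.10 on the log2 scale, reached at d12, where 26 of 67 cells held a UMI. *Itgb6*, a chain known from epithelia, was highest at d20 (6.44 CPM), where 6 of 38 cells held a UMI.

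The change across the first day was counted with a threshold of 1 in the difference of mean log2(CPM + 1), among genes whose mean reached 1 in 1 of the groups or both. A member that passes this filter through 1 group alone is favoured to differ, so the counts speak of the members that passed and not of all 42. Of 16 such members, 5 were higher at d1 than at d0 (*Itga6*, *Itga2*, *Itgb7*, *Itga3*, *Itga4*) and 1 was lower (*Itgav*), where 19.3% of all 9441 genes were higher and 4.57% lower. All of these 6 had number ranges that did not overlap between the days, as did 16.5% of all genes for a higher and 4.04% for a lower level. The members' median difference was 0.09, against 0.43 for all genes. The 5 higher members were integrins. None of the 6 cadherins that passed differed by 1, a list too small to set apart from the 19.3% of all genes. From d1 to d2, of 16 members, 4 were lower (*Itga6*, *Itga2*, *Itgb7*, *Itga3*; 1.91% of all genes were lower) and 5 were higher (*Cdh11*, *Cdh6*, *Itga1*, *Itga4*, *Itgb5*; 6.33% of all genes). Both comparisons use the same d1 cells, so genes that are high at d1 are favoured to be higher in the first and lower in the second. Cells of d1 were deeper than cells of d0, with medians of 749158 and 344196 UMIs.

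At d8, of 15 members that passed, 6 were higher than at d0 (*Cdh6* by 3.21, *Itga8* by 3.03, *Itgb5* by 2.76, *Cdh11* by 2.51, *Cdh13* by 2.16, *Itga11* by 1.97) and 5 were lower (*Cdh2*, *Itgb1*, *Itga6*, *Cdh3*, *Itgb7*). Over all 9557 genes 17.1% were higher and 13.7% lower, so both shares of the members (40.0% and 33.3%) were above the background. Their median difference was 0.44, against 0.08 for all genes. Of 8 fibroblast markers, 6 were also higher at d8, and their part in the members' rise was not tested. After thinning, 2 in place of 5 members were lower, since *Itga6* and *Itgb7* no longer passed the level filter and *Cdh3* was no longer counted.

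At d12, of 19 members that passed, 10 were higher than at d0 and 3 were lower, with 19.8% and 16.3% of all 9611 genes. The share of lower members (15.8%) was near the background and that of higher members (52.6%) above it, and their median difference was 1.00, against -0.01 for all genes. The 10 were *Itga11*, *Itga8*, *Cdh13*, *Cdh11*, *Cdh6*, *Itga3*, *Itgb3*, *Itgb5*, *Itga1* and *Itga6*, with differences from 2.71 down to 1.00, and the ranges of each were apart, as they were for 18.1% of all genes that passed. *Itga6* just reached the threshold, and the 3 lower members (*Cdh2*, *Cdh3*, *Itgb1*) lay between -1.09 and -1.05, with ranges apart for all but *Cdh2* (13.9% of all genes). With edgeR TMM or DESeq2 factors 1 member was lower. Most fibroblast markers were also higher at d12 than at d0 (6 of 8), and their part in the members' rise was not tested.

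At d20, of 15 members that passed, 2 were higher than at d0 and 7 lower, with 15.0% and 25.1% of all 9352 genes. *Cdh13* was higher by 3.41. *Itga3* was higher by 1.06, a call that was lost without any filter on cells (0.48), with a filter of 6000 genes (0.29), with TMM factors (0.98) or without its highest cell (0.99), and that was 0.07 in the d20 cells numbered 1 to 24. The 7 lower members were *Cdh11* (-5.46), *Itgb1* (-3.54), *Cdh2* (-2.92), *Itgav* (-2.59), *Itga5* (-1.77), *Itgb5* (-1.09) and *Itgb7* (-1.06), with ranges apart for 6 of them and overlapping for *Itgb5* (20.3% of all genes were lower with ranges apart). With the log2 of the mean CPM, 12 members were lower. Of the 2 higher members, the ranges were apart for *Cdh13* and overlapped for *Itga3* (12.0% of all genes). The median difference of the members was -0.96, against -0.20 for all genes. The comparisons of d8, d12 and d20 share the d0 cells, so they are not independent of each other. Of the 8 fibroblast markers, 7 were lower at d20 than at d0, and their part in the members' fall was not tested.

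Between d12 and d20, none of 18 members was higher and 13 were lower, where 20.5% and 30.9% of all 9749 genes were. The median difference was -2.0, against -0.20 for all genes, and all 13 had ranges that did not overlap, as had 29.0% of all genes. The 5 that did not reach the threshold were *Cdh13* (0.95), *Itga9* (0.20), *Itga3* (-0.57), *Itgb7* (-0.71) and *Itga4* (-0.72). All 8 fibroblast markers were lower too, and the spike-in share was higher, as given above. Cells at d20 were shallower, and after thinning 11 members were lower, with *Cdh2* at -0.95. The number of integrin genes with a UMI in a thinned cell was 5.76 ± 2.08 (n = 66 cells) at d12 and 2.47 ± 1.65 (n = 36) at d20, and that of cadherins 2.58 ± 0.98 and 1.64 ± 0.99.

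**Figure D4:**
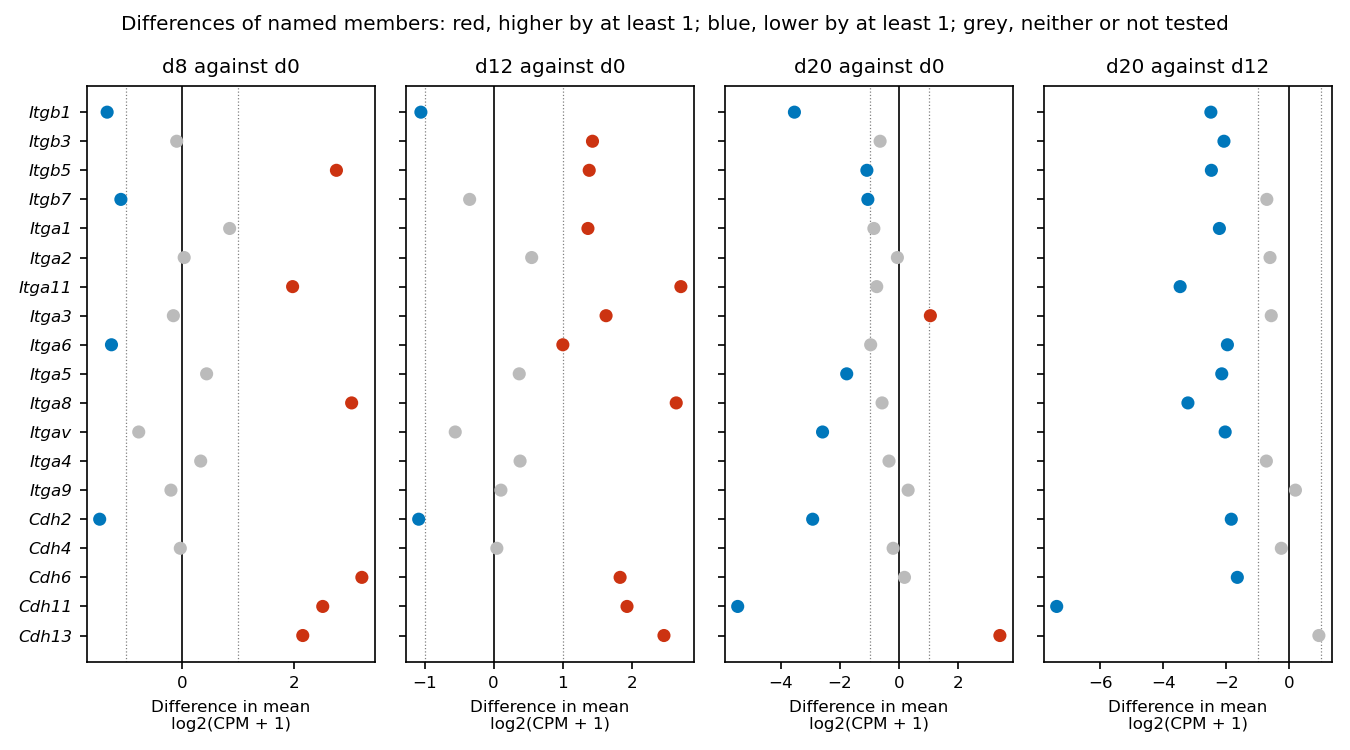
Difference in mean log2(CPM + 1) for the 19 better expressed members in 4 comparisons, with red for at least 1 higher, blue for at least 1 lower and grey for neither or below the level filter; dotted lines mark -1 and 1. At d12 most points lie right of 0, and against d12 the d20 points lie left of 0 except *Cdh13* (0.95) and *Itga9* (0.20).

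UMIs of *Cdh11*, *Itga8* and *Cdh2* came from a minority of the 38 cells at d20. The 8 cells with a *Cdh11* UMI had a median of 11.1 CPM over 6 fibroblast markers (without *Thy1* and *Pdgfra*), against 0 in the 30 cells without one. The 2 markers left out were the only ones with a mean over 10 CPM at d20, where all 8 summed to a median of 241 CPM. The sum of 6 therefore covers only the markers that were low at d20. For *Itga8* (9 cells) and *Cdh2* (9 cells) the medians were 14.8 CPM each, against 0 in the others. The highest sum was the same 752 CPM in the cells with *Cdh11*, with *Itga8* and with *Cdh2*. Cells with an *Itga8* or *Cdh2* UMI were also deeper, with medians of 482203 and 406722 UMIs against 158530 UMIs in cells without. Not all members showed this: cells with *Itga3* (14 cells) or *Cdh6* (10 cells) had a median of 0 CPM of these markers against 6.38 and 3.47 CPM without, and the 36 cells with *Cdh13* 1.72 CPM against 4.33 CPM in the other 2. Cells with *Itga3* or *Cdh6* were shallower than those without, with medians of 165821 against 222388 and 177344 against 200209 UMIs. Those with *Cdh13* were deeper (200887 against 120645 UMIs), and the part of depth was not tested.

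Cells picked from colonies differed from unpicked cells of the same day. At d8c, of 15 members that passed, 1 was higher than at d8 (*Itga6*, 2.57 ± 2.76 in 20 cells against 0.66 ± 1.46 in 62) and 5 were lower (*Cdh13*, *Cdh6*, *Itgb5*, *Itga11*, *Cdh11*), with 4.59% and 16.0% of all genes. In the d12c cells numbered 1 to 24, of 18 members, 1 was higher than at d12, again *Itga6* (4.31 ± 2.57 in 21 cells against 2.92 ± 2.42 in 67), and 5 were lower (*Cdh13*, *Itga1*, *Cdh11*, *Itga8*, *Itga11*), with 2.42% and 8.92% of all genes. For *Itga6* the highest cells had 249 CPM at d8c and 141 CPM at d8, and 222 CPM in the d12c cells and 286 CPM at d12, so that the groups overlapped. The summed fibroblast markers of both colony groups were lower too, with medians of 3780 against 11181 CPM on day 8 and 3771 against 7291 CPM on day 12, and their part was not tested. Each of these colony groups is 1 number range, so a spread over ranges could not be set beside the difference.

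In the d12c cells numbered 49 to 96, 15 of 19 members were lower than at d12 and 1 was higher (*Cdh13*, 6.29 ± 2.90 in 30 cells against 5.17 ± 2.71 in 67), with 32.2% and 17.3% of all genes. Their *Cdh11* level was 1.00 ± 1.83, and *Itgb3* and *Itgb7* had no UMI in these 30 cells, which allows a share of up to 10.0%. Set beside them, d20 differed by at least 1 in 1 of 12 members (*Itga3*, higher by 1.28), with 14.9% of all genes higher and 10.3% lower. No member was lower. *Cdh13* made up 80.3% of the summed mean CPM of the 21 cadherins of the set (without *Cdh1* and *Cdh15*) in the d12c cells with numbers from 49 to 96. In d12c cells 1 to 24 it made up 5.27%.

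**Figure D5:**
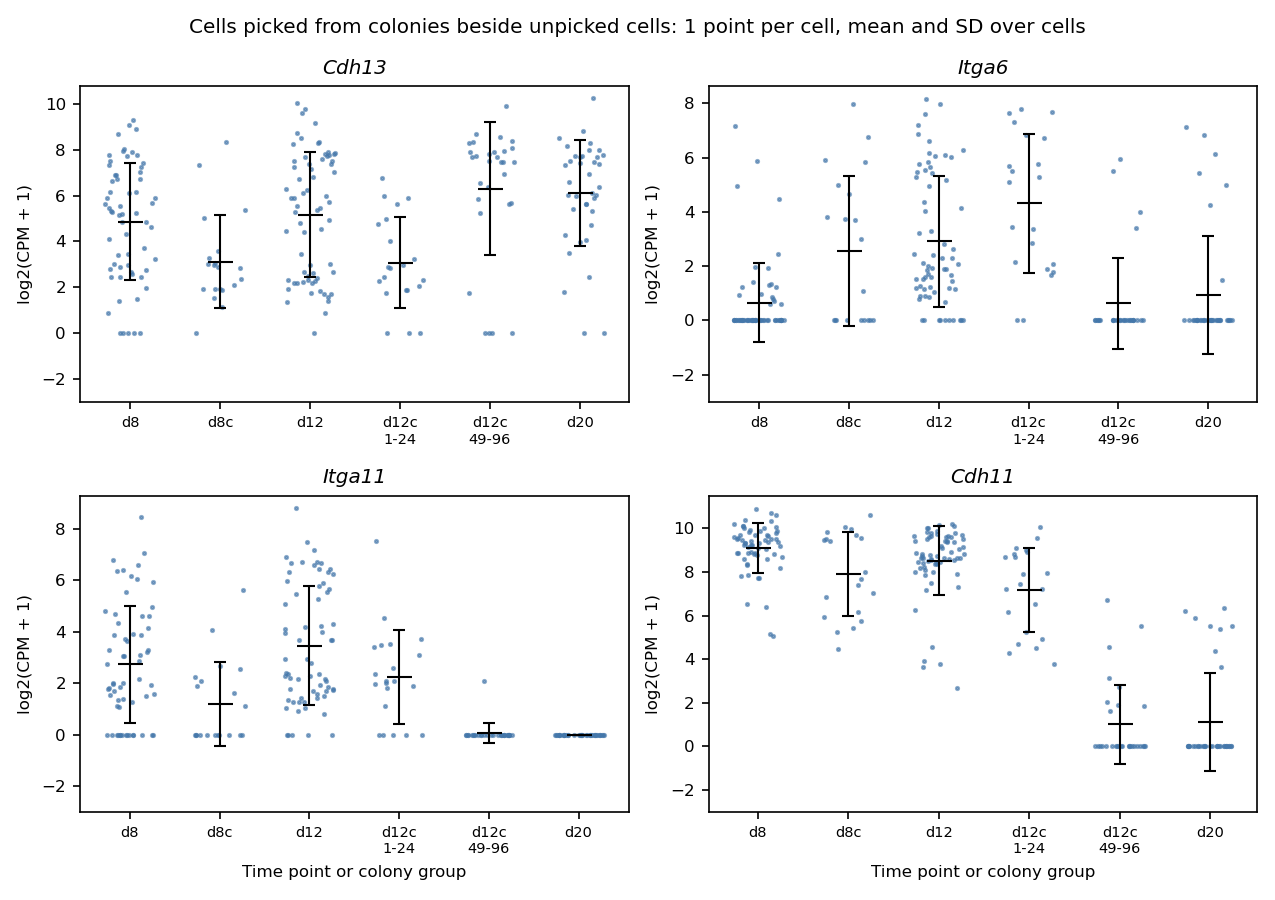
log2(CPM + 1) of *Cdh13*, *Itga6*, *Itga11* and *Cdh11* in every kept cell (points) of d8, d8c, d12, the 2 number ranges of d12c and d20, with the mean and SD over cells (black bars). *Cdh11* and *Itga11* are at or near 0 in most d12c cells numbered 49 to 96 and at d20, where *Cdh13* has means of 6.29 and 6.12.

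Chains that form known pairs were looked up in the same thinned cells. *Itga6* and *Itgb1* were found together in 12 of 71 cells at d0, 33 of 40 at d1, 7 of 37 at d3 and 4 of 36 at d20. *Itgav* and *Itgb5* were found together in 13 of 71 cells at d0, 49 of 81 at d6p, 29 of 66 at d12 and 2 of 36 at d20. *Itga8* and *Itgb1* were found together in 35 of 59 cells at d8 and 5 of 36 at d20. *Itga4* and *Itgb7* were found together in 5 of 40 cells at d1 and 12 of 82 at d2. Since nearly every cell before d20 held *Itgb1*, the counts with *Itgb1* are close to those of the alpha chain alone. A missing UMI at this depth does not show that a chain was absent.

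The partners of these receptors were taken from lists of 14 cytoplasmic adaptors, 7 catenins and 16 ligands. Between d12 and d20, 10 of 13 adaptors that passed were lower and 2 higher, with a median difference of -2.88 against -0.20 for all genes. *Tln1* (talin), which joins beta chains to actin, went from a mean log2(CPM + 1) of 6.33 at d12 to 2.84 at d20, *Parva* (parvin, of the integrin-linked kinase complex) from 7.70 to 2.57, and *Pxn* (paxillin) from 6.53 to 1.28. The 2 higher adaptors were *Fermt1*, the kindlin of epithelia (0.32 to 1.93), and *Tln2* (1.66 to 3.81). Of the ligands, 10 of 14 were lower and 4 higher, where 30.9% and 20.5% of all genes were. The lower ones included *Tnc* (tenascin C, 8.75 to 0.00), *Thbs1* (thrombospondin 1, 9.27 to 0.46) and *Col1a1* (11.02 to 0.44), the last of which is also a fibroblast marker here. The 4 higher ligands were the basement membrane genes *Lama1* (1.55 to 5.26), *Col4a1* (5.28 to 8.55), *Lamb1* (5.54 to 7.45) and *Lamc1* (3.91 to 5.31). Of 5 catenins that passed, 3 were lower (*Ctnnd1*, *Ctnnd2*, *Jup*), and none was higher, a small list beside the same 30.9% of all genes.

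Against d0, both directions were seen among the partners, where 19.8% of all genes were higher and 16.3% lower at d12. Of 12 adaptors that passed, 4 were higher at d12 (*Pxn*, 1.82 to 6.53, *Zyx*, *Ptk2*, *Fermt2*) and 1 lower (*Tln2*). Of 14 ligands, 5 were higher (*Tnc*, *Mfge8*, *Lama1*, *Edil3*, *Col1a1*) and 2 lower, *Fn1* (fibronectin, 7.95 to 6.0) and *Spp1* (osteopontin, 6.93 to 4.80). At d20, 8 of 13 adaptors were lower than at d0 and 2 higher, and 8 of 13 ligands were lower and 4 higher, among all genes with 25.1% lower and 15.0% higher.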

How the data were processed

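Single-cell RNA-seq of MEFs under C6FAE was analysed. As deposited, the values are whole-number UMI counts per gene and cell; the authors split reads by cell barcode, trimmed and aligned them to the mm9 transcriptome, and removed duplicates by UMI. The aligner and any filter on cells are not given in the sources used here. Of the rows, 4 listed more than once and 92 ERCC spike-in rows were left out, and all 5 counts of at least 100000 were multiples of 1000, so large counts had been rounded. No column of the table was left unused.

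The filter on cells was 4000 detected genes. CPM were computed without spike-ins, averaged over cells as log2(CPM + 1), and a gene was called higher or lower where 2 groups differed by at least 1 if its mean reached 1 in 1 of them or both. Groups follow the cell names; no cell could be tied to 1 of the 10 listed batches, so there is no replicate error, no test and no p-value. Binomial and zero-count limits (3 counts) cover counting error only. Differences were computed for all 23197 genes, and the calls and shares cover those that passed the level filter. Members with a mean of at least 10 CPM were named, in order of role, and partner and marker lists were used as listed. The members and lists were chosen with earlier results of these data known.

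Alternatives covered the filter on cells, scaling (edgeR 4.0.16 TMM and DESeq2 1.42.0 factors in R 4.3.3), pseudocount, level filter, threshold, thinning, the kind of mean, the highest cell and number ranges. Gene positions were taken from GENCODE M1 (NCBIM37, mm9; first base 1) and promoters from RefSeq on GRCm38.p6. Python 3.11.15, numpy 2.4.6, pandas 2.3.3, scipy 1.17.1 and matplotlib 3.10.9 were used.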

Additional observations from a re-analysis of the deposited data

How the results depend on the processing

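Of 614 called differences of the 19 better expressed members recomputed under an alternative, 537 were called the same way, and none of the 614 changed sign. Uncalled differences, the rest of the 1083 recomputed, were not checked for a change of sign. Counts of members moved by over 1.5 times as follows. Lower at d8 than at d0 (5) became 1 with a pseudocount of 10, 0 with a threshold of 2 and 2 after thinning. Higher at d12 (10) became 4 with a pseudocount of 10 and 3 with a threshold of 2. Lower at d12 (3) became 0 without a filter on cells or with a threshold of 2, and 1 with TMM factors, DESeq2 factors, a pseudocount of 10, the log2 of the mean CPM, or d12 cells numbered 25 to 48 alone. Higher at d20 than at d0 (2) became 1 with no filter on cells, with 2000 or 6000 genes, with TMM factors, a pseudocount of 10, a threshold of 2, or without the highest cell. Lower at d20 than at d0 (7) became 4 with a pseudocount of 10 or a threshold of 2, and 12 with the log2 of the mean CPM. Higher at d20 than at d12 (0) became 1 with 6000 genes, 2 with the log2 of the mean CPM, 1 with d20 cells numbered 25 to 48 alone and 1 with the d12c cells numbered 49 to 96 in place of d20. Lower at d20 than at d12 (13) became 6 with a pseudocount of 10. A pseudocount of 10 shrinks differences of low genes by construction; the other causes were not tested. Scaling factors moved the median difference of all genes by up to 0.30. The number ranges and the d12c alternative were chosen after seeing the data. No paired analysis was possible because cells carry no batch or replicate number. Genes of a few UMIs per cell limit what can be read from cells at 0, above all at d20.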
